A study of Mus musculus with 2 samples.

Results

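Krüppel-like factors (KLF) and the nuclear receptors of the NR4A family are transcription factors that switch quickly with the state of a blood cell, and 9 of their genes were examined here in CML LSCs, the leukemic stem cells of chronic myeloid leukemia. The genes were Klf2, Klf3, Klf4, Klf6, Klf10, Klf13, Nr4a1, Nr4a2 and Nr4a3, chosen by name from the 23284 gene symbols listed for both libraries. The choice rests on the symbol, but earlier results of these data were known when it was made. All 9 had lower values in the STAP-1 KO library than in the WT library. Among the 8 genes with at least 0.1 FPKM in both libraries, the fold ran from 1.13 in Nr4a2 to 3.77 in Klf6 and 4.61 in Klf2, and Nr4a3, below 0.1 FPKM in STAP-1 KO, had a fold of 9.77 on few reads.

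The WT library was made from CML LSCs of wild type C57BL/6J donors, and the STAP-1 KO library from CML LSCs of C57BL/6J donors whose Stap1 gene is disrupted in every cell. In both groups, LSK cells (negative for lineage markers, positive for Sca-1 and c-Kit) of mice aged 8 to 14 weeks were transduced with a retrovirus that carries human BCR-ABL and GFP, and transplanted into lethally irradiated C57BL/6SJL recipients, which were not deleted for Stap1 in either group. GFP+ CD45.2+ LSK cells were sorted 11 days later and measured by RNA-seq, with 1 library per genotype available here. Whether the study made further libraries is not known. The number of mice behind each library is not given in the sources used here, so every difference lacks replicates and is given without a test.

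KLF proteins bind GC-rich and CACCC-type sequences through 3 zinc fingers at the C-terminus, and their N-terminal parts recruit coactivators or corepressors. KLF2 and KLF4 are best known in blood for holding lymphocytes out of the cell cycle, and KLF2 also sets which homing receptors a lymphocyte carries. NR4A proteins are orphan nuclear receptors whose amount, more than any ligand, sets their activity. Their genes are induced within minutes by growth factors, antigen receptors and cAMP, and Nr4a1 and Nr4a3 restrain the expansion of normal HSCs. For the comparison, Klf2, Klf3, Klf4 and Klf13 were taken as quiescence-linked, and Klf6, Klf10, Nr4a1, Nr4a2 and Nr4a3 as stimulus-induced. The division is one of convenience, since Klf2 and Klf4 also respond to stimuli and Nr4a1 and Nr4a3 also act in quiescence. Klf3 and Klf13 were grouped with Klf2 and Klf4 as constitutively expressed genes, rather than for a role in quiescence.

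The promoters of the NR4A genes are shown because these genes are textbook targets of CREB, the factor that binds the cAMP response element (CRE), and that of Klf2 because the kinase ERK5 induces it through MEF2 factors. RefSeq promoters of 300 bases (250 before and 50 after the start, GRCm38.p6) were given for 8 of the 9 genes, the exception being Klf10. The 4 stretches that follow end before the first annotated transcript that starts in the window. Capitals mark the CRE half-site TGACG, written CGTCA where it lies on the opposite strand, and the MEF2 box. They are Nr4a1 at chr15:101266596-101266845 on the plus strand, Nr4a2 at chr2:57124004-57124253 on the minus strand, Nr4a3 at chr4:48045055-48045152 on the plus strand and Klf2 at chr8:72318812-72319032 on the plus strand.
Nr4a1: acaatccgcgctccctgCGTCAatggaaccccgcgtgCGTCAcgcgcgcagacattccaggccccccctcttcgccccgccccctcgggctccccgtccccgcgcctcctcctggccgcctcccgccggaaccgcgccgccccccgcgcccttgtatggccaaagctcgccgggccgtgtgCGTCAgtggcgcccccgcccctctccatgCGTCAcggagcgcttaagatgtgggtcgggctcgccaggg
Nr4a2: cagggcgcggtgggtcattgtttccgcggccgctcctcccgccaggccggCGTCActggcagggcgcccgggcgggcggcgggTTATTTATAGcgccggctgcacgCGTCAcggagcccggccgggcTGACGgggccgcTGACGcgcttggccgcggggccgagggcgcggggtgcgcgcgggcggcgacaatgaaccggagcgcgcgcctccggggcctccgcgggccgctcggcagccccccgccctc
Nr4a3: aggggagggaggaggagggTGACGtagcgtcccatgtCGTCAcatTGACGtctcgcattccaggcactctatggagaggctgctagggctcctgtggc
Klf2: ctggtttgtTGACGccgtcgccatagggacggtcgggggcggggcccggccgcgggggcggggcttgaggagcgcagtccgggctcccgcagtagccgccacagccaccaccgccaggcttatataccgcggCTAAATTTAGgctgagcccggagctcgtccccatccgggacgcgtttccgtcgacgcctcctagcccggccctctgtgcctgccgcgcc

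Each of the 3 NR4A promoters held 4 CRE half-sites, a number that 0.231% of the 32851 RefSeq promoters of this length reached. One of those of Nr4a3 lies beyond the printed stretch. Klf2, Klf3, Klf4 and Klf13 each held 1, as 20.8% of all promoters held at least 1, and Klf6 held none. A MEF2 box was found in Klf2, beginning at position -118 from the start, and in Nr4a2, beginning at -167, against 3.19% of all promoters. The KLF box CACCC was found 5 times in Klf3, 3 times in Nr4a3, 2 times in Nr4a2 and once each in Klf2 and Klf13, with 57.5% of all promoters holding it. In Nr4a3 one CACCC match overlaps a CRE half-site. The full CRE TGACGTCA (in 1.79% of all promoters), the NR4A response element AAAGGTCA (1.51%), the AP-1 site TGANTCA (7.81%) and the CArG box of SRF (1.63%) were in none of the 8. Both strands were searched, and a match of letters is not a site of binding.

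**Figure D1:**
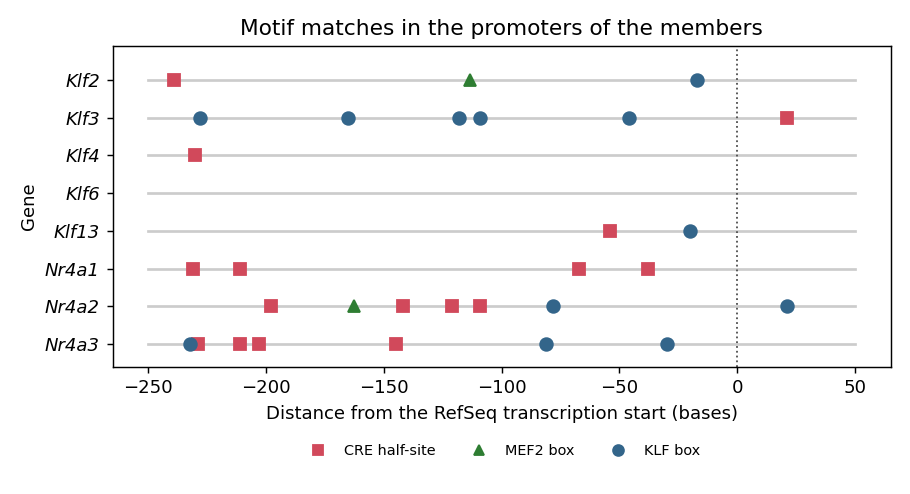
Motif matches in the promoters of 8 members, with 1 line per gene, the distance in bases from the RefSeq transcription start on the x axis and 1 symbol per match on either strand. Nr4a1, Nr4a2 and Nr4a3 hold 4 CRE half-sites each, whereas the KLF genes hold at most 1.

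The values are FPKM, in which reads are scaled to the length of the transcript and the size of the library, so that the levels of different genes can be set side by side. Effective depths, read from the steps between low values, were about 7500000 reads for WT and 10470000 reads for STAP-1 KO, estimates that left many of the low values off a whole read. Estimated reads follow from these and from the longest annotated transcript, and are approximate for the members with several transcripts (all but Klf2). The 95% intervals given below are exact and cover the counting of these reads only, not the variation between mice or preparations. Stap1, the targeted gene, had 62.0 FPKM in WT CML LSCs and 0.309 FPKM in STAP-1 KO CML LSCs. Of the antigens behind the sort, Kit had 468 and 30.1 FPKM, Ly6a (Sca-1) 285 and 106 FPKM and Ptprc (CD45) 107 and 38.2 FPKM, and Cd34, a progenitor marker outside the sort, had 281 and 194 FPKM, so that all 4 genes were present in both libraries and lower in STAP-1 KO. All genes together leaned slightly downwards, with a median log2 ratio of STAP-1 KO over WT of -0.04 among the 10974 genes whose mean reached 1 FPKM.

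By level, Klf6 stood above the other members in both libraries and made up 53.9% of their summed FPKM in WT and 44.4% in STAP-1 KO. In the WT library it was followed by Klf2, Nr4a1, Klf10, Klf3, Klf13, Klf4, Nr4a2 and Nr4a3. The counting intervals of neighbours in this order overlapped for 1 pair, Klf13 and Klf4. In the STAP-1 KO library, Nr4a1 stood above Klf2 and Nr4a2 above Klf4. There the intervals overlapped between Klf2 and Klf10, between Klf13 and Nr4a2 and between Nr4a2 and Klf4. The 9 genes summed to 738 FPKM in WT CML LSCs and 238 FPKM in STAP-1 KO CML LSCs.

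**Figure D2:**
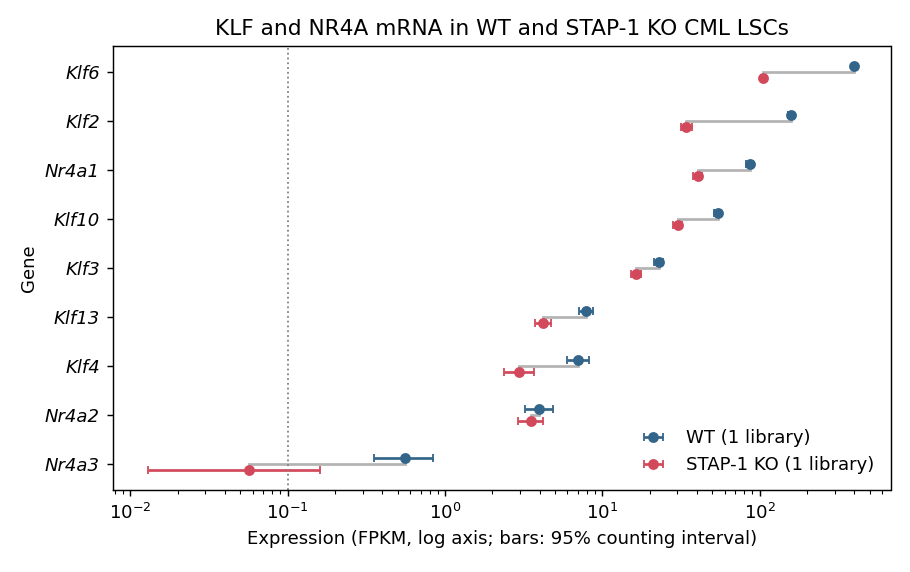
FPKM of the 9 members (log axis) for WT (blue) and STAP-1 KO (red), with 95% counting intervals and a dotted line at the floor of 0.1 FPKM. Every red point lies to the left of its blue point, and the distance is widest for Nr4a3, followed by Klf2 and Klf6.

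Among the quiescence-linked genes, Klf2 had 158 FPKM in WT CML LSCs and 34.2 FPKM in STAP-1 KO CML LSCs, or about 1934 and 587 estimated reads. Klf2 lies on chromosome 8 (plus strand) from 72319033 to 72321656, as a protein-coding gene with a single annotated transcript in GENCODE M21. Its log2 ratio without a pseudocount was -2.20 (95% counting interval from -2.34 to -2.07). The gene thus went from the 95.6th to the 76.9th percentile of the genes above 0 FPKM, and 6.85% of the 10974 genes whose mean reached 1 FPKM had a lower ratio.

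Klf4, whose product can act as activator or repressor and is one of the factors that reprogram cells to pluripotency, was a low gene here. It had 7.01 FPKM in WT CML LSCs and 2.96 FPKM in STAP-1 KO CML LSCs, a fold of 2.36. This rested on about 148 and 87.5 estimated reads, and the log2 value of -1.24 had a counting interval from -1.64 to -0.85. The interval extends above -1, the 2-fold cut-off.

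Klf3 and Klf13 did not pass the 2-fold cut-off. KLF3 represses genes by recruiting the corepressor CtBP, and KLF13 is known from T cells as an activator of the chemokine gene Ccl5. Klf3 had 22.8 FPKM in WT CML LSCs and 16.4 FPKM in STAP-1 KO CML LSCs, a log2 ratio of -0.48 (from -0.62 to -0.34). Klf13 had 7.91 and 4.21 FPKM, a log2 ratio of -0.91 (from -1.14 to -0.68). Both have long transcripts, of 5221 and 6396 bases, and long transcripts had lower ratios in general: across 9931 genes the log2 ratio and the transcript length had a Spearman's rank correlation of -0.36, which is a description across genes of 1 pair of libraries. When the median of genes of like length and GC content was taken off, Klf3 came to -0.03 and Klf13 to 0.33, on the other side of 0, whereas Klf2 stayed at -2.21 and Klf4 at -1.11.

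Among the stimulus-induced genes, Klf6 had 397 FPKM in WT CML LSCs and 106 FPKM in STAP-1 KO CML LSCs. KLF6 is a ubiquitous activator induced early after injury and in activated myeloid cells. The gene lies on chromosome 13 (plus strand) from 5861482 to 5870394. It rested on about 11960 and 4439 estimated reads. The log2 ratio of -1.91 was the most closely determined of the 9 (from -1.96 to -1.86). Among genes whose mean reached 100 FPKM, to which Klf6 belongs, the median log2 ratio was 0.35 and 14.9% were at least 2-fold lower in STAP-1 KO.

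Klf10, first described as an early gene of TGF-β, had 53.97 FPKM in WT CML LSCs and 30.3 FPKM in STAP-1 KO CML LSCs. The fold of 1.78 was below the cut-off, and the log2 ratio was -0.83 (from -0.96 to -0.71). Corrected for length and GC content, the value was -1.04.

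Nr4a1, which encodes Nur77, was the main NR4A gene of these cells, with 86.6 FPKM in WT CML LSCs and 40.4 FPKM in STAP-1 KO CML LSCs. It lies on chromosome 15 (plus strand) from 101254269 to 101274795. The fold was 2.14 and the log2 ratio -1.10 (from -1.22 to -0.98), and after the correction it was -0.999, just short of the cut-off. Nr4a2, which encodes Nurr1, had 3.97 and 3.50 FPKM, and its log2 ratio of -0.18 had an interval on both sides of 0 (from -0.57 to 0.22). A change of Nr4a2 was therefore not detectable at this depth. Nr4a3, which encodes NOR1, had 0.557 FPKM in WT CML LSCs and 0.0570 FPKM in STAP-1 KO CML LSCs, or about 23.0 and 3.29 estimated reads. Its ratio without a pseudocount was -3.29 with a wide interval from -5.53 to -1.62, and was -2.07 with a pseudocount of 0.1 FPKM. The STAP-1 KO value lies below the floor of 0.1 FPKM, so Nr4a3 was not counted with the cut-off.

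**Figure D3:**
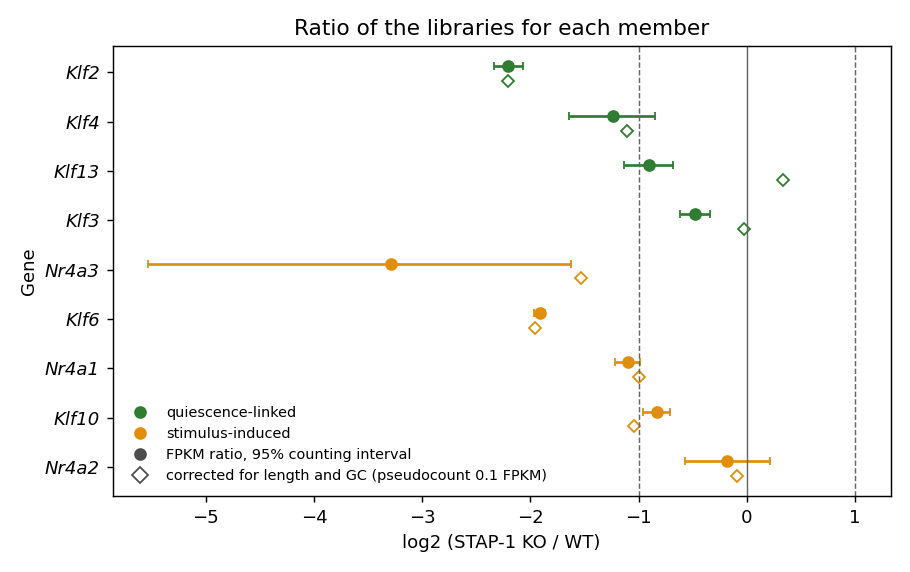
Log2 ratio of STAP-1 KO over WT for each member, as filled circles with 95% counting intervals (no pseudocount) and as open diamonds once corrected for length and GC content. Dashed lines mark the 2-fold cut-off, and the diamonds of Klf3 and Klf13 lie near or above 0 while those of Klf2 and Klf6 lie near -2.

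With at least 0.1 FPKM in both libraries, 8 of the 9 genes could be compared. The 2-fold cut-off was applied to the ratio of the FPKM values themselves, with no pseudocount. Of these, 4 (Klf2, Klf4, Klf6 and Nr4a1) were lower in STAP-1 KO by 2-fold or more, where 22.9% of all 12507 comparable genes were, and none was 2-fold higher, against 12.3% of all. Klf2 alone was at least 4-fold lower, against 8.56% of all. The background depended on the level. Of genes with a mean of 1 to 10 FPKM, the class of Klf4, Klf13 and Nr4a2, 31.7% were 2-fold lower and the median log2 ratio was -0.39, whereas 16.6% were at 10 to 100 FPKM, the class of Klf2, Klf3, Klf10 and Nr4a1. The counting interval lay below 0 for 8 of the 9 genes, but those of Klf4, Nr4a1 and Klf13 extended across -1, so that their side of the cut-off was not fixed at this depth. After the correction, Klf10 took the place of Nr4a1 among the 4 genes past the cut-off, 8 of the 9 stayed below 0, and 17.7% of all genes with a corrected value were past it downwards.

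The quiescence-linked and the stimulus-induced genes, as divided here, were not separated. With a pseudocount of 0.1 FPKM, the 4 quiescence-linked genes had a median log2 ratio of -1.05 (from -2.20 to -0.48) and the 5 stimulus-induced genes one of -1.10 (from -2.07 to -0.18). In each set 2 genes were past the cut-off. The spread within each set was far wider than the gap between them, and no test was made on so few genes of 1 pair of libraries. The correction moved the quiescence-linked median to -0.57, through Klf3 and Klf13, and the stimulus-induced median to -1.04. The sum of the quiescence-linked genes was 195 FPKM in WT and 57.8 FPKM in STAP-1 KO, and that of the stimulus-induced genes 542 and 179.8 FPKM. By family, the sum of the 6 KLF genes, most of it Klf6 and Klf2, was 3.34-fold lower in STAP-1 KO, and that of the 3 NR4A genes, most of it Nr4a1, 2.07-fold lower. The family medians of the log2 ratio were close, at -1.05 for KLF and -1.10 for NR4A.

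**Figure D4:**
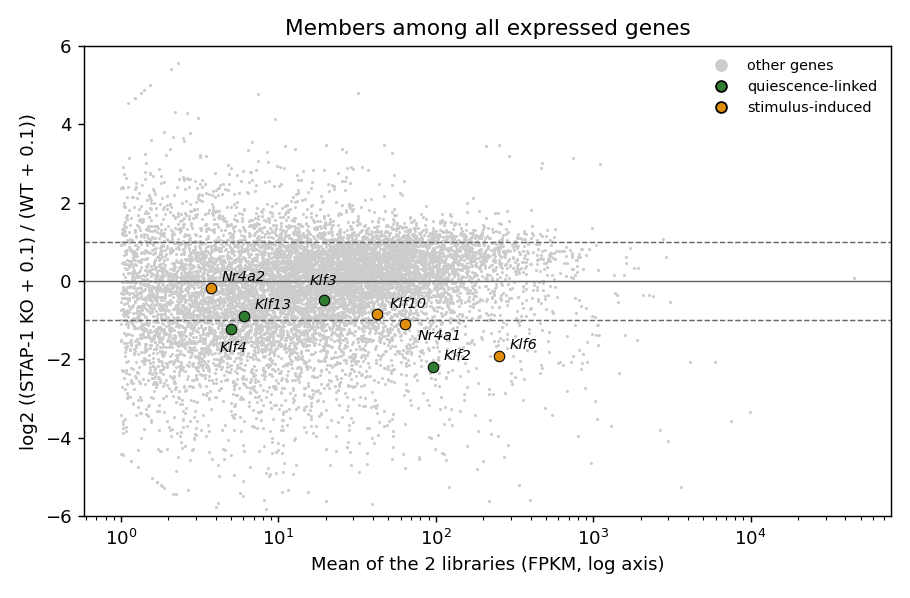
Log2 ratio of STAP-1 KO over WT (pseudocount 0.1 FPKM) against the mean of the libraries (log axis) for genes whose mean reached 1 FPKM, in grey, and for 8 members, in colour. Nr4a3 has too low a mean to be drawn and 48 genes lie beyond the axis limits of 6, while Klf2 and Klf6 sit low among genes of their level.

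Other members of the family were listed from general knowledge. The counts of this and the following lists stand against 22.9% of all comparable genes lower and 12.3% higher by 2-fold, and against 17.7% lower after the correction. Of 11 further KLF genes, 7 were comparable, of which Klf7 (10.8 and 3.81 FPKM) was 2-fold lower and none higher, which is no larger a share than among all genes. Their median log2 ratio was -0.79 over 7 genes. After the correction Klf7 came to -0.62, so that none was past the cut-off, and the median was -0.56. Klf5 (4.66 and 2.52 FPKM) and Klf9 (15.8 and 9.13 FPKM) were also lower, but below the cut-off. Klf1, the erythroid KLF, was nearly level at 103 and 108 FPKM. Klf11, the closest relative of Klf10, had 6.18 and 8.23 FPKM, the other way from the 9 genes but short of the cut-off. Klf14, Klf15 and Klf17 were listed at 0 FPKM in both libraries. The 4 related SP factors had a median of -0.44, with Sp1 (4.78 and 2.37 FPKM, 2.02-fold) at the cut-off before the correction and at a log2 ratio of -0.14 after it.

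Genes of the proteins through which KLFs act were also examined. Of 12 cofactor and turnover genes, 5 were 2-fold lower and 1 higher, 10 were below 0, and the median log2 ratio was -0.79 (-0.42 after the correction). Smurf1 (29.1 and 3.13 FPKM) and Fbxw7 (21.7 and 3.69 FPKM), a pair of ubiquitin ligase genes, and the acetyltransferase gene Ep300 (9.04 and 1.86 FPKM) were lower. Hdac2 was higher, with 117 and 261 FPKM, but its corrected log2 ratio of 0.90 was short of the cut-off, so that 4 genes of the list were lower and none higher after the correction. The CtBP genes on which KLF3 relies, Ctbp1 (143 and 77.8 FPKM) and Ctbp2 (16.1 and 13.2 FPKM), stayed within the cut-off, as Klf3 did.

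Among 6 genes known as KLF2 targets, 5 were at least 2-fold lower in STAP-1 KO, as Klf2 was, with a median log2 ratio of -1.51 over the 5 whose mean reached 1 FPKM. The 5 lower genes were Itgb7 (320 and 52.95 FPKM), an integrin chain, Cdkn1a (217 and 66.4 FPKM), which encodes the CDK inhibitor p21, the receptor genes S1pr1 (8.65 and 2.98 FPKM) and S1pr4 (10.3 and 4.37 FPKM), and Thbd (1.18 and 0.490 FPKM). After the correction Thbd, at -0.94, was short of the cut-off. Of 3 genes that KLF3 is known to repress, Lgals3 had 408 and 34.8 FPKM, Klf8 3.36 and 1.78 FPKM and Fam132a 96.7 and 81.1 FPKM, of which Lgals3 alone was past the cut-off. Their median log2 ratio was -0.88, and only 2 of the 3 had a corrected value, so that a corrected median is void.

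Of 21 genes that act upstream of Klf2 and the NR4A genes, 12 were 2-fold lower and 1 was higher, with a median log2 ratio of -1.09. After the correction for length and GC content 4 of the 21 were lower, a share near that of all genes, 2 were higher, and the median was -0.58. Nfatc2 (9.58 and 0.770 FPKM) and Nfatc1 (54.9 and 14.8 FPKM), which carry calcium signals to Nr4a promoters, were lower under both. Mef2c was higher, with 4.02 and 13.8 FPKM. Creb1 had 8.24 and 8.31 FPKM, and Crem, its relative, 36.97 and 12.2 FPKM. After the correction Creb1 was at 0.69, higher in STAP-1 KO but short of the cut-off. Mapk7, which encodes ERK5, had 13.3 and 6.19 FPKM, and Map2k5, the kinase gene above it, 19.8 and 32.4 FPKM. The FOXO gene Foxo1, an activator of Klf2 in lymphocytes, had 5.37 and 1.43 FPKM. Mapk7 and Foxo1 were short of the cut-off after the correction, at -0.58 and -0.83.

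Genes linked to NR4A action split evenly, with 3 of 9 comparable genes 2-fold lower and 3 higher. Their median log2 ratio was -0.28, and 0.30 after the correction, so that its sign depended on the correction. Rxra, a partner of NR4A1 and NR4A2, had 3.14 and 0.604 FPKM, and Ikzf2 5.76 and 1.97 FPKM, though Ikzf2 was short of the cut-off after the correction (-0.82). Cebpa (0.768 and 4.36 FPKM), Tox (2.27 and 6.76 FPKM) and Ctla4 (0.232 and 1.94 FPKM) were higher. For Klf10, a list of 9 genes held those of the TGF-β ligand, its receptors and SMAD proteins beside early response genes. Of these 9 genes, 5 were 2-fold lower and none higher, with Tgfbr1 (80.8 and 6.60 FPKM), Tgfbr2 (13.98 and 3.16 FPKM) and Skil (6.69 and 2.201 FPKM) among the lower. Their median log2 ratio was -1.22, against -0.83 for Klf10 itself. After the correction the order was the other way, with -0.91 for the list, of which 4 genes without Skil remained past the cut-off, and -1.04 for Klf10.

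The stimulus-induced members can be set beside other immediate-early genes. Of 26 comparable genes 20 were 2-fold lower in STAP-1 KO and none was higher, and the count was again 20 after the correction, with Atf3 in place of Per1. The median log2 ratio was -1.53. Egr2 (52.2 and 2.91 FPKM), Fosb (36.4 and 5.46 FPKM) and Rgs1 (1386 and 291 FPKM) were among the lower genes. Klf6 lay below this median, and Klf10, Nr4a1 and Nr4a2 above it. Nr4a3 lay below it at a pseudocount of 0.1 FPKM and above it, at -0.56, at a pseudocount of 1 FPKM. A difference between the sets was not tested. Of 16 comparable quiescence genes 12 were 2-fold lower and none was higher (7 lower after the correction), with a median of -1.43, or -0.86 after the correction. Btg1 (102 and 19.4 FPKM), Tob1 (44.2 and 12.9 FPKM) and Rbl2 (31.6 and 8.86 FPKM), all of which restrain proliferation, were lower, and Cdkn1c, which encodes p57 of quiescent HSCs, had 0.944 and 1.30 FPKM.

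**Figure D5:**
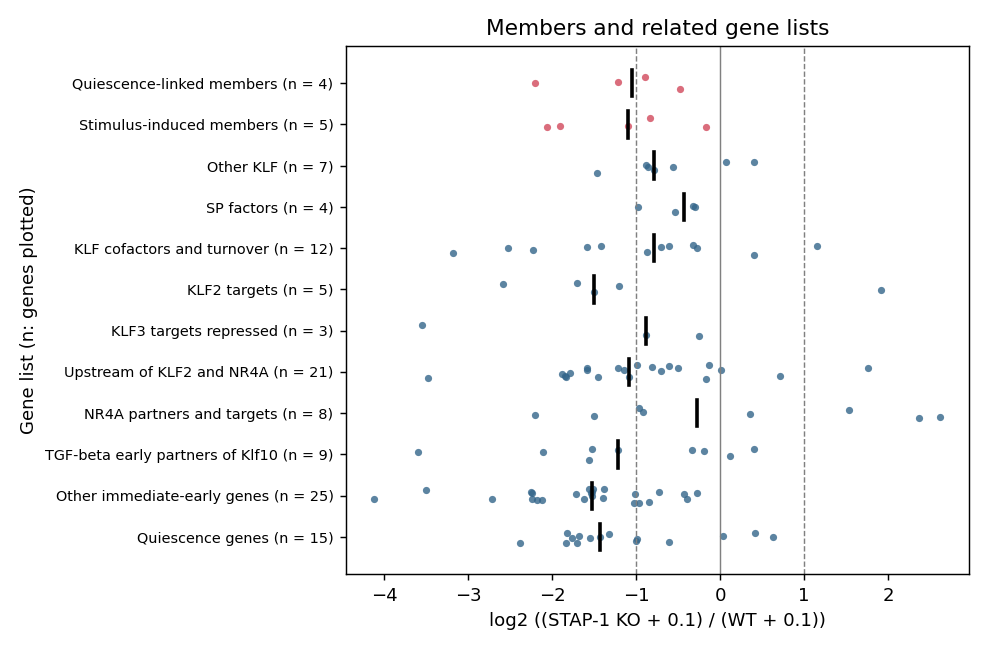
Log2 ratio of STAP-1 KO over WT (pseudocount 0.1 FPKM) for the members, in red, and for the related lists, in blue, with 1 point per gene, a bar at each median and dashed lines at 2-fold. For the lists, genes whose mean reached 1 FPKM are drawn. The immediate-early and quiescence lists have medians of -1.53 and -1.43 (-1.53 and -0.86 after the correction, not drawn), and both member sets lie near -1.

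Markers of other cells moved with the genotype. All 12 mast cell and basophil markers were lower in STAP-1 KO, 11 of them at least 2-fold, and their summed level was 52279 FPKM in WT and 5364 FPKM in STAP-1 KO. All 6 neutrophil primary granule markers were at least 2-fold higher, with sums of 571 and 4666 FPKM. Of 4 monocyte and macrophage markers, 3 were 2-fold higher and 1 lower, with sums of 65.0 and 118 FPKM. The 3 T cell markers summed to 3.38 and 6.81 FPKM and the 3 B cell markers to 0.505 and 0.222 FPKM. In the erythroid and megakaryocyte lists, Epor had 28.8 and 28.5 FPKM, Pf4 57.9 and 71.2 FPKM, Gp9 5.75 and 7.29 FPKM, and Itga2b 123 and 32.5 FPKM. Their part in the lower Klf and Nr4a values was not tested. In such bulk libraries fewer cells of a type and less RNA per cell cannot be told apart.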

How the data were processed

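GFP+ CD45.2+ LSK cells were measured by RNA-seq (SMART-Seq v4, Nextera XT, 75-base single reads), and 1 WT and 1 STAP-1 KO library were available. The authors mapped the reads to mm10 and deposited FPKM values made with Cuffnorm. The submitters' processing notes name TopHat2 2.0.13, Bowtie2 2.2.3, SAMtools 0.1.19 and Cufflinks 2.2.1, and the methods give another SAMtools version. The gene annotation and the scaling of the libraries are not given in the sources used here.

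Ratios were taken (Python 3.11.15; scipy 1.17.1, pandas 2.3.3, numpy 2.4.6) as log2((STAP-1 KO + 0.1)/(WT + 0.1)) unless stated. The cut-off was a 2-fold ratio of FPKM without a pseudocount (for corrected values, 1 on the log2 scale with it), with at least 0.1 FPKM in both libraries. For depth, low values of genes with 1 transcript were examined, of which 46.6% (of 283, WT) and 47.7% (of 344, STAP-1 KO) lay within 0.01 of a whole read. Length and GC content (20 bins each) came from GENCODE M21 (GRCm38), to which 20911 symbols matched. Members, lists and groups were chosen with earlier results of these data known. Named genes were all members, Stap1 and, per list, the 3 genes of mean at least 1 FPKM with the largest absolute log2 ratio at a pseudocount of 1; others were named after their values were seen. The steps were tested on simulated data. Alternatives changed the pseudocount, scaling, floor, cut-off, correction and division into sets. Some genes of the lists enter the counts, medians and sums but are not reported here.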

Additional observations from a re-analysis of the deposited data

How the results depend on the processing

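Under 6 other settings (pseudocount, scaling, correction) 53 of the 54 log2 ratios of members were below 0, the exception being Klf13 corrected for length and GC content. The correction brought the median of the quiescence-linked genes to -0.57. The median of the stimulus-induced genes was -0.81 at a pseudocount of 1 FPKM, -0.83 with Nr4a1 and Nr4a3 counted as quiescence-linked, and -0.96 without Nr4a3, a setting added after seeing the data. Of the counts of members past the cut-off, 4 remained under 3 other scalings and a floor of 1 FPKM, while 1 was left at 4-fold, 6 were counted at 1.5-fold and 5 without a floor. Over the scalings, the median log2 ratio of all genes lay between -0.11 and 0.01. No paired analysis was possible because there is 1 library per genotype, and for the same reason no library could be left out. Depth limits Nr4a3 and Nr4a2, and the side of the cut-off of Klf4, Nr4a1 and Klf13.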
